A study of Mus musculus with 12 samples.

Results

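Cells given GSK-LSD1 together with ruxolitinib were compared with cells given ruxolitinib alone, and the genes that changed are described here. Both groups were mouse leukaemia cells made from BALB/c bone marrow by retroviral expression of mutant CSF3R, the receptor for granulocyte colony-stimulating factor, and mutant CEBPA, a transcription factor of granulocyte development. The combination group was kept for 24 h with 50 nM ruxolitinib, which blocks the kinases JAK1 and JAK2, and 2 nM GSK-LSD1, which blocks the enzyme LSD1. The ruxolitinib group received ruxolitinib alone, and 2 further groups, used for a second pair, received GSK-LSD1 alone or DMSO, the solvent. All cells carried the mutant genes and grew in IMDM medium with fetal bovine serum, so there was no group without the mutations. The labels do not say whether the 3 libraries of a group came from separate cultures, so p-values measure only the spread between these libraries, which may be technical. The number of leukaemias or clones behind the cells is not given in the sources used here, and neither are the particular mutations. The fold changes compare 6 of the 12 libraries, 3 in each group, while the variance behind each test came from all 12. It covered the 11484 of 24411 genes whose mean normalised read count over all 12 libraries was at least 10, a limit that did not use the treatment.

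LSD1, a histone demethylase encoded by Kdm1a, removes methyl groups from histones and sits in repressor complexes with the scaffold protein CoREST (Rcor1 and relatives) and the histone deacetylases HDAC1 and HDAC2. In blood cells the DNA-binding repressors GFI1 and GFI1B bring this complex to their target genes, which include their own genes and genes of monocytes and granulocytes. JAK1 and JAK2 pass signals from cytokine receptors such as CSF3R to the STAT transcription factors, and CEBPA and CEBPE drive the successive waves of granule genes as granulocytes mature.

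Values are normalised read counts, that is, gene read counts that the submitters divided by a factor for each library. Fold changes are differences in log2 of the value plus 1, combination minus ruxolitinib unless another pair is named, with the standard error (SE). A gene rose or fell where limma's moderated test gave a Benjamini-Hochberg adjusted p under 0.05 over all 11484 genes. Of the genes left out, 5560 were above 0 in at least 1 library. The nearest gene below the limit, Atp5g1, averaged 9.99 over the 12 libraries, with 8.92 in the combination group and 11.1 in the ruxolitinib group. The nearest above it, Il20ra, averaged 10.04, with 13.2 in the combination group and 4.34 in the ruxolitinib group.

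In multiples of the smallest step between values, the 12 libraries summed to between 8260995 and 8528400, so their depths were close. A library in each group stood apart: on the second principal component, which held 11.1% of the variance, combination replicate 3 lay at -17.3 and ruxolitinib replicate 2 at -19.7. The other combination libraries lay at 0.12 and -1.12, and the other ruxolitinib libraries at -4.64 and -2.50. In these libraries the deviation of a gene from its mean over all libraries followed transcript GC content, with Spearman's rho across genes of 0.48 in combination replicate 3 and 0.38 in ruxolitinib replicate 2. The fold change between the groups did not follow GC content (rho 0.001 over 11053 genes, as a description). Without these 2 libraries 1860 genes rose and 1865 fell, and a count of 5 or more over a gene group below is given without them where it moved by over 1.5 times. Genes of the granulocyte lineage such as Mpo, Ctsg and Csf3r were read in every library. Markers of other cells were mixed, some at 0 and others high, and are given further on. The strandedness of the libraries is not given in the sources used here, so reads of overlapping genes cannot be told apart. Among the genes described this holds for Gfi1, Rcor3, Cdc42bpb, Scpep1, Cd7, Ccnb1ip1, Tuba8, Slco2b1, Gpr25, Itgam, Ncf1, Prtn3, Mpo, Csf1r, Cx3cr1, Zeb2, Cebpa, Gnl3, Dkc1, Grwd1, Hspd1, Orc1, Il6ra, Ptpn6, Jak1, Tyk2, Stat3, Bcl6, Cd34, Sox4, Angpt1, Thbs1, Rag1, Dusp5, Casp9, Gbp2, Irf7, Lss and Hif1a, each of which overlaps another annotated gene.

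The promoters of genes on either side of the response are shown first, because the factors named above are known for the letters they bind. The sequences are RefSeq windows of GRCm38.p6, from 250 bases before to 50 bases after the annotated start, 5′ to 3′ on the gene's own strand. In the first 3, capitals mark AATC, the core of the GFI1 and GFI1B motif, and its reverse complement GATT. Gfi1b and Gfi1 encode the partner repressors of LSD1. Mmp8 (neutrophil collagenase) is the only gene that passed the test for a response differing with ruxolitinib, a call lost under several settings given below. In the last 3, capitals mark the E-box CACGTG, which MYC binds. Grwd1, Hspd1 and Nop2 (ribosome assembly, mitochondrial chaperonin and ribosomal RNA methylation) are the members with the smallest p of the MYC list below whose window holds an E-box.
Gfi1b, chr2:28621933-28622232, minus strand: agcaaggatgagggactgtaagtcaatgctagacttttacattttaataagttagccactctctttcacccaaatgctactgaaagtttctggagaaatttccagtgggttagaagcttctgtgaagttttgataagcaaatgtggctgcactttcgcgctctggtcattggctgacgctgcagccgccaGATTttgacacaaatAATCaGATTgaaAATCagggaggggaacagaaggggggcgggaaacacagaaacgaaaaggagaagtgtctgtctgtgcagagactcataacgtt
Gfi1, chr5:107725756-107726055, minus strand: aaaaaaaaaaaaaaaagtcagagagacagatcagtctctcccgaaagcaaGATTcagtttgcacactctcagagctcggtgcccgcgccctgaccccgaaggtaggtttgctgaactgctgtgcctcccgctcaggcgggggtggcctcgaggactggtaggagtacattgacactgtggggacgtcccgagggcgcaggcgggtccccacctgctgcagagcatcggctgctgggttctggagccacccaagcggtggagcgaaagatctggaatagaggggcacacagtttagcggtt
Mmp8, chr9:7558179-7558478, plus strand: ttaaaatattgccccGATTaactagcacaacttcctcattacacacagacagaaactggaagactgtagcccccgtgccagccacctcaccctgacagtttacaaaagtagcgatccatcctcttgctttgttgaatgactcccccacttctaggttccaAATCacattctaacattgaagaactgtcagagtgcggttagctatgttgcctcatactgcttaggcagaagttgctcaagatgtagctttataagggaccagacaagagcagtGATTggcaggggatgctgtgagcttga
Grwd1, chr7:45830740-45831039, minus strand: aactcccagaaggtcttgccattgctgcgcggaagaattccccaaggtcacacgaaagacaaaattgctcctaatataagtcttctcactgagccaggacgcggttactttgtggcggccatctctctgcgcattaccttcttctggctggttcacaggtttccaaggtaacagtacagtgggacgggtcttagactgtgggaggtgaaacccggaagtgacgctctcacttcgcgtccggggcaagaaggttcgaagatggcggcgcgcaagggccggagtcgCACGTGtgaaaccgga
Hspd1, chr1:55088194-55088493, minus strand: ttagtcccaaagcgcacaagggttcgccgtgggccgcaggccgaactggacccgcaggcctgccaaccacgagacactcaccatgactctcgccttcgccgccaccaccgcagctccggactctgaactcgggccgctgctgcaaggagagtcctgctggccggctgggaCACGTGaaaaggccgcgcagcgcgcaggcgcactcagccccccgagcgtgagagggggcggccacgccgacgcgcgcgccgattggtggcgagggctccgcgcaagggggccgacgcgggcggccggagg
Nop2, chr6:125131633-125131932, plus strand: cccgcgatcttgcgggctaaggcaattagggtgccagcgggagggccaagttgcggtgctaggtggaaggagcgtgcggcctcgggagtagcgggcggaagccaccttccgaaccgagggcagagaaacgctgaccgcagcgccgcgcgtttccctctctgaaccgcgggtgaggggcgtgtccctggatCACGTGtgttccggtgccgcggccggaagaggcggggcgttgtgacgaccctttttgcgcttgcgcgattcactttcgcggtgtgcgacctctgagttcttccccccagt
The letters of the GFI motif were about as frequent among genes that rose as among genes that fell. The core AATC, on either strand, stood in the window of 65.2% of genes that rose and 66.1% of those that fell. Among the 266 genes with a window that rose at least 2-fold the share was 68.0%, and among the 8865 tested genes with a window 66.3%. The longer AATCNNNGC, which contains the core, was in 11.6% of the rises and 11% of the falls. It was in 13.2% of the 2-fold rises and 11.6% of tested genes. It occurred in 10.4% of all 27025 promoters. The E-box CACGTG was in 140 of the 1398 windows of genes that rose, a share near the 10.5% of tested genes. It was in 14.1% of the falls of any size, 5.64% of the 2-fold rises and 7.24% of all promoters. In the list of MYC targets and ribosome biogenesis genes 8 of 23 windows held it (34.8%). A match to letters is a description of the window and not a binding site, and genes with more than 1 window were read in the first listed.

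Adding GSK-LSD1 to ruxolitinib changed 3625 genes, 31.6% of those tested, with 1832 higher (16%) and 1793 lower (15.6%). Without adjustment, 4820 genes had a p under 0.05. With the variance estimated from the 6 libraries of the comparison alone, 1439 genes rose and 1128 fell. Replicates in these groups were mostly further apart than in the other groups, so the variance from all 12 may be too small here. The rises were larger than the falls: 364 genes rose at least 2-fold (3.17%) and 26 fell at least 2-fold (0.226%). The median log2 fold change was 0.51 over the genes that rose, -0.31 over those that fell and -0.02 over all tested. More than 4-fold rises numbered 55. Genes that rose at least 2-fold had a median of 25.4 normalised read counts in the ruxolitinib group, against 331 for all tested genes and 694 for genes that fell. That level is part of the fold that chose them, and the limit on the mean lets in genes that are high in the other groups alone, so a low value is partly built in. The libraries of the groups did not overlap for 4418 genes (38.5%).

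The repressor partners of LSD1 rose, while LSD1 itself did not pass the test. Gfi1b, which lies on the minus strand of chromosome 2 at 28609450 to 28621982 (GRCm38, GENCODE vM21), had 4494, 4651 and 5223 normalised read counts in combination libraries and 917, 1130 and 858 in ruxolitinib libraries. The groups were far apart, and the log2 fold change was 2.31 ± 0.08 (adjusted p = 9.78e-15). Gfi1, on the minus strand of chromosome 5 at 107716657 to 107726036, had 432, 382 and 441 in combination libraries and 124, 109 and 88.0 in ruxolitinib libraries. It rose by 1.97 ± 0.12 (adjusted p = 3.51e-11). Kdm1a had 1201, 1247 and 1219 in combination libraries and 1213, 1205 and 1280 in ruxolitinib libraries. These ranges overlapped, and the log2 fold change of Kdm1a was -0.01 ± 0.06 (adjusted p = 0.902). Of 18 genes listed for the LSD1 complex and its partners 16 were tested, 5 rose, 1 fell and 10 did not pass, with a median of 0.12. Over all tested genes 16% rose and 15.6% fell. Phf21a, which encodes a subunit that reads unmethylated histone tails, rose by 0.44 ± 0.09, and Rcor3, a CoREST relative, by 0.54 ± 0.17 (adjusted p = 0.0184). Hdac2, the deacetylase of the complex, was the member that fell, by 0.36 ± 0.06 on the log2 scale. Without combination replicate 1 or without ruxolitinib replicate 1 the members that rose numbered 3, and Rcor3 lost its call without either of these or without combination replicate 2 (adjusted p of 0.0676 to 0.0868). Insm1, a neuroendocrine relative of GFI1, was at 0 in all 12 libraries.

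**Figure D1:**
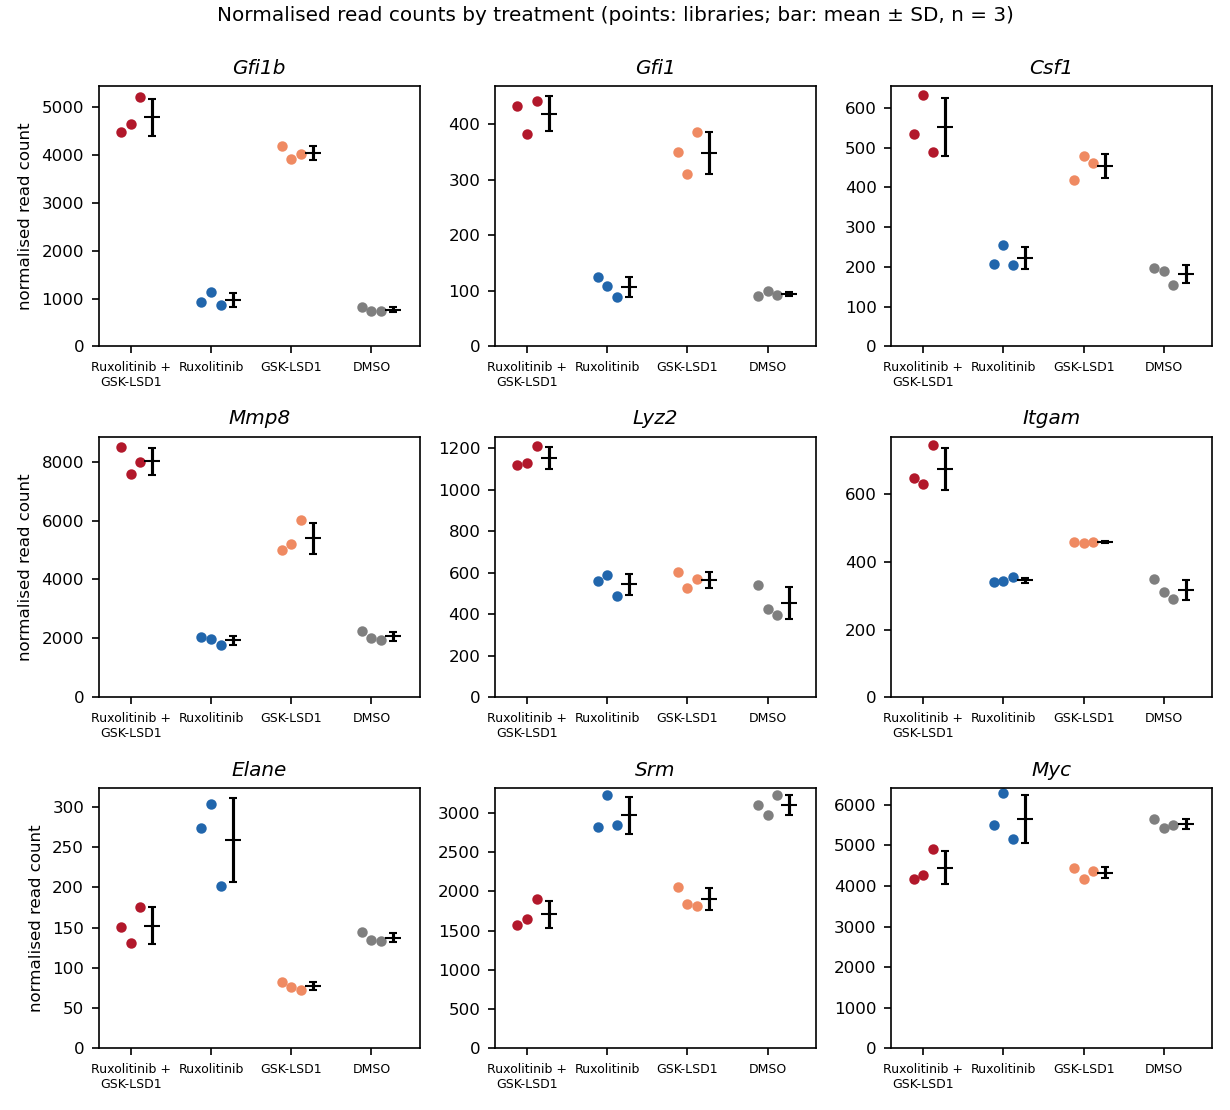
Normalised read count (vertical axes, from 0) of 9 genes in each of the 4 treatments. Points are libraries and the bars beside them the mean ± SD (n = 3). Gfi1b, Gfi1, Csf1, Mmp8, Lyz2 and Itgam stand higher in the combination than with ruxolitinib alone in every library, and Elane, Srm and Myc stand lower; the combination libraries of Mmp8 lie between 7585 and 8499, above those with GSK-LSD1 alone at 5016 to 6006.

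Genes were ranked if they passed, if the higher of the groups averaged 100 or more and if no libraries overlapped, and Moxd1 (a monooxygenase-like protein) came first. It had 220, 159 and 219 normalised read counts in combination libraries and 8.95, 11.3 and 23.7 in ruxolitinib libraries, a log2 fold change of 3.78 ± 0.24. Maged1, a member of the MAGE family of adaptor proteins, had 400, 387 and 438 in combination libraries against 36.8, 48.3 and 35.6 in ruxolitinib libraries (3.32 ± 0.13, adjusted p = 5.57e-14). Both genes were thus several-fold higher in every combination library. Secreted proteins followed: Fstl1, a follistatin-like glycoprotein, had 157, 137 and 141 in combination libraries and 20.9, 15.4 and 12.9 in ruxolitinib libraries (3.09 ± 0.24). Dkk1, an antagonist of Wnt signalling, had 316, 275 and 305 in combination libraries and 27.9, 33.9 and 47.4 in ruxolitinib libraries (3.04 ± 0.15). Id3, an inhibitor of helix-loop-helix transcription factors, had 109, 113 and 124 in combination libraries and 12.9, 14.4 and 20.8 in ruxolitinib libraries (2.80 ± 0.26). For these 3 genes the lowest combination library was more than 4-fold above the highest ruxolitinib library. The other 5 of the 10 largest rises were Cdc42bpb (a kinase that binds CDC42) at 3.06 ± 0.12, Scpep1 (a serine carboxypeptidase) at 2.81 ± 0.18, Cd7 (a surface protein best known from T cells) at 2.75 ± 0.15, Kctd14 at 2.74 ± 0.13 and the membrane protein gene Emp1 at 2.56 ± 0.15.

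Falls were smaller. Car2, carbonic anhydrase 2, had 88.3, 84.8 and 99.5 normalised read counts in combination libraries and 199, 202 and 249 in ruxolitinib libraries, a log2 fold change of -1.24 ± 0.14. Rprm, a p53 target that holds cells in G2, had 275, 302 and 317 in combination libraries and 656, 817 and 637 in ruxolitinib libraries (-1.23 ± 0.09, adjusted p = 7.17e-10). Both genes stood lower in every combination library. Egr1, an immediate early transcription factor, had 149, 155 and 176 in combination libraries and 285, 336 and 339 in ruxolitinib libraries (-0.99 ± 0.10). Etv4, an ETS transcription factor induced by MAPK signalling, had 64.5, 85.8 and 103 in combination libraries and 167, 159 and 166 in ruxolitinib libraries (-0.97 ± 0.14). No combination library of either gene reached a ruxolitinib library. Ccnb1ip1 at -1.22, Ms4a3 at -1.07, the alpha-tubulin gene Tuba8 at -1.05, the organic anion transporter gene Slco2b1 at -0.92, the sodium pump subunit gene Atp1b2 at -0.89 and the orphan receptor gene Gpr25 at -0.88 completed the 10 largest falls.

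**Figure D2:**
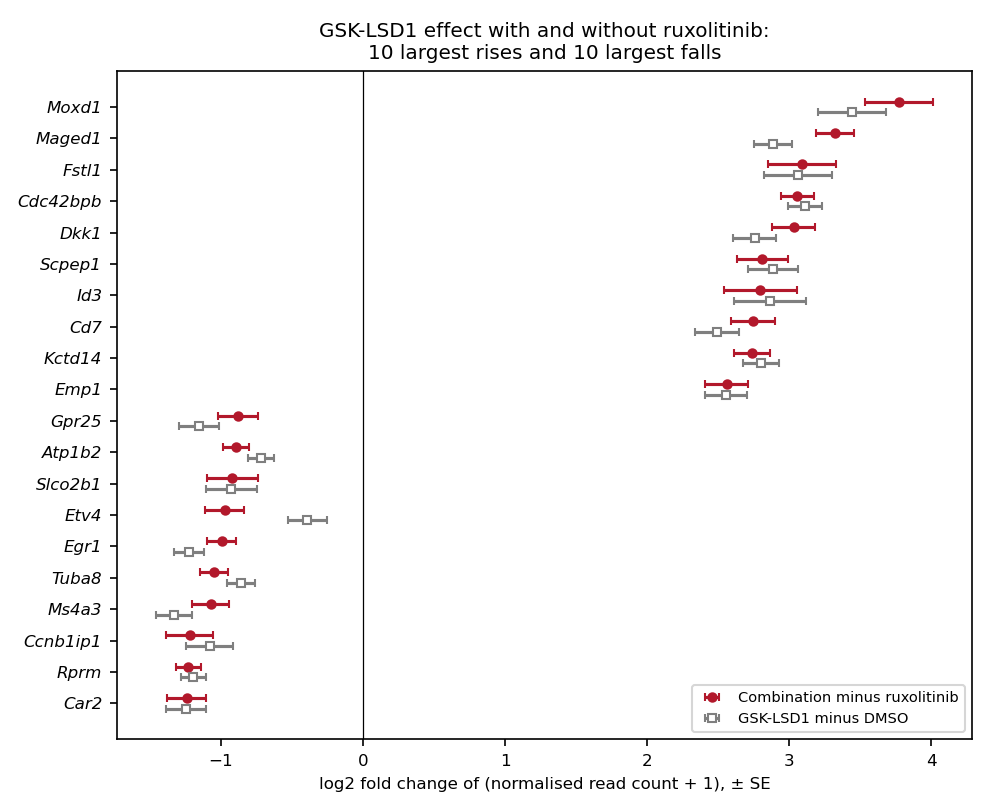
Log2 fold changes ± SE (horizontal axis) of the 10 genes with the largest rises and the 10 with the largest falls. Filled circles are combination minus ruxolitinib and open squares GSK-LSD1 minus DMSO. Moxd1 leads the rises at 3.78 and Car2 the falls at -1.24; all 20 genes had the same sign in the pair without ruxolitinib, and Etv4 was the fall with the widest gap, at -0.97 and -0.39.

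Genes listed for the late neutrophil granules rose or did not pass. Of 20 genes listed for secondary and tertiary granules 15 were tested, 8 rose, none fell and 7 did not pass. Of all tested genes 16% rose, and the median log2 fold change was 0.69 in the list against -0.02 over all tested genes. In bulk RNA, more cells of a kind and more RNA per cell cannot be told apart, here and in all groups below. Mmp8, the collagenase of secondary granules, on the plus strand of chromosome 9 at 7558456 to 7568485, had 8499, 7585 and 7974 normalised read counts in combination libraries and 2040, 1991 and 1764 in ruxolitinib libraries. It rose by 2.05 ± 0.07 (adjusted p = 9.78e-15), with a wide gap between the groups. Lyz2, lysozyme, had 1117, 1127 and 1212 in combination libraries and 558, 589 and 490 in ruxolitinib libraries (1.08 ± 0.10, adjusted p = 1.89e-08). Hp, haptoglobin, had 659, 530 and 660 in combination libraries and 275, 321 and 243 in ruxolitinib libraries (1.14 ± 0.11). Every combination library of both genes lay above every ruxolitinib library. Cd177, a surface protein of secondary granules, rose by 0.85 ± 0.12, and Padi4, the enzyme that citrullinates histones in neutrophils, by 0.69 ± 0.12.

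Of 25 listed genes of mature neutrophils 23 were tested and 17 rose, with 1 fall and a median of 0.60. Itgam, the integrin CD11b, had 648, 631 and 747 normalised read counts in combination libraries and 340, 343 and 355 in ruxolitinib libraries (0.96 ± 0.08, adjusted p = 9.47e-09). S100a8, a subunit of calprotectin, had 2307, 2212 and 2048 in combination libraries and 1342, 1266 and 1068 in ruxolitinib libraries (0.84 ± 0.09). Anxa1, annexin A1, had 2784, 2597 and 2417 in combination libraries and 1611, 1464 and 1325 in ruxolitinib libraries (0.83 ± 0.08). All 3 genes were higher in every combination library. Tyrobp, the adaptor DAP12, rose by 0.96 ± 0.10. Alox5, which makes leukotrienes, was the exception and fell by 0.38 ± 0.07 on the log2 scale. Ly6g was not in the table. For the NADPH oxidase, which makes the oxidative burst, 4 of 8 tested genes rose and none fell (median 0.17), among them the subunit genes Cybb at 0.52 ± 0.12, Ncf1 at 0.51 ± 0.08 and Ncf4 at 0.30 ± 0.06.

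The primary granule is made earlier, and its list also holds genes of a protease inhibitor and of progenitors, named below. Of 13 tested genes in it 2 rose, 4 fell and 7 did not pass, with a median of 0.03. The share of rises was near the 16% of all tested genes, and 15.6% of all tested genes fell, against 4 of 13 here. Elane, neutrophil elastase, had 151, 131 and 176 normalised read counts in combination libraries and 274, 303 and 202 in ruxolitinib libraries, a log2 fold change of -0.75 ± 0.14 (adjusted p = 0.000235). Ctsg, cathepsin G, had 1003, 993 and 1053 in combination libraries and 1562, 1541 and 1090 in ruxolitinib libraries (-0.44 ± 0.09). Ms4a3, a membrane protein of granulocyte and monocyte progenitors, had 230, 192 and 210 in combination libraries and 547, 468 and 341 in ruxolitinib libraries (-1.07 ± 0.13). In all 3 genes ruxolitinib replicate 3 was the lowest of its group and still above every combination library. Prtn3, proteinase 3, fell by 0.54 ± 0.09 on the log2 scale. Mpo, myeloperoxidase, had 11970, 12040 and 12910 in combination libraries and 10690, 11870 and 8395 in ruxolitinib libraries (0.27 ± 0.08, adjusted p = 0.0176). Its call was lost without ruxolitinib replicate 3 (adjusted p = 0.135). Serpinb1a, an inhibitor of the granule proteases, rose by 0.38 ± 0.06. With GSK-LSD1 alone Elane had 82.9, 76.6 and 72.8, against 144, 135 and 134 with DMSO.

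Most tested genes of monocytes and macrophages rose. Of 27 listed 22 were tested, 18 rose, 2 fell and 2 did not pass, with a median of 0.88. Csf1, macrophage colony-stimulating factor, had 534, 631 and 490 normalised read counts in combination libraries and 207, 254 and 205 in ruxolitinib libraries (1.31 ± 0.11, adjusted p = 8.39e-09). Csf1r, its receptor, was read at low levels, with 69.4, 52.3 and 72.6 in combination libraries and 31.8, 22.6 and 27.7 in ruxolitinib libraries (1.21 ± 0.22, adjusted p = 0.000229). Cd33, a sialic acid-binding receptor of myeloid cells, had 537, 521 and 471 in combination libraries and 270, 251 and 188 in ruxolitinib libraries (1.12 ± 0.11). No library of one group reached the other in these 3 genes. Mpeg1, the pore-forming protein of macrophages, rose by 1.25 ± 0.14, Lgals3, galectin 3, by 0.88 ± 0.08 and the Fc receptor gene Fcgr3 by 0.74 ± 0.07. Plac8 fell by 0.38 ± 0.06 on the log2 scale. Cx3cr1, the fractalkine receptor, fell by 0.75 ± 0.27 on the log2 scale, from few reads (17.2 ± 2.3 in the combination group and 29.7 ± 6.0 in the ruxolitinib group, SD, n = 3 each). Its call was lost under several settings, including without combination replicate 1 or 2, ruxolitinib replicate 1 or 3, or GSK-LSD1 replicate 2, each of which left 1 fall in the list.

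Lysosomal genes rose with them, and none fell: 21 of 29 tested rose, with a median of 0.30. Psap, which encodes the precursor of the saposins, had 5597, 5590 and 6163 normalised read counts in combination libraries and 3016, 3099 and 2958 in ruxolitinib libraries (0.93 ± 0.05, adjusted p = 2.21e-11). Lgmn, the protease legumain, had 533, 539 and 545 in combination libraries and 146, 156 and 147 in ruxolitinib libraries (1.84 ± 0.08). Ctss, cathepsin S, had 267, 294 and 274 in combination libraries and 67.7, 90.4 and 61.3 in ruxolitinib libraries (1.93 ± 0.13). The spread within a group was small beside the gap for all 3. Man2b1, a lysosomal mannosidase, rose by 0.49 ± 0.05. The lists of monocyte, neutrophil and lysosomal genes describe functions that mature myeloid cells share, so their counts are not independent of each other.

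Transcription factors of myeloid cells rose more often than they fell, with 13 higher and 2 lower of 25 tested and a median of 0.32. Klf2, a factor of quiescent and anti-inflammatory states, had 253, 217 and 272 normalised read counts in combination libraries and 63.7, 82.2 and 70.2 in ruxolitinib libraries (1.77 ± 0.17). Irf8, which directs monocyte and dendritic cell fate, had 80.3, 69.1 and 106 in combination libraries and 40.8, 23.6 and 24.7 in ruxolitinib libraries (1.51 ± 0.21). Cebpe, the factor for secondary granule genes, had 301, 301 and 346 in combination libraries and 194, 223 and 166 in ruxolitinib libraries (0.71 ± 0.11, adjusted p = 7.48e-05). These 3 genes were higher in every combination library. Zeb2 rose by 0.65 ± 0.08. Lmo2, a partner of haematopoietic transcription factors, fell by 0.52 ± 0.07 on the log2 scale, and Gata1, the erythroid and mast cell factor, by 0.27 ± 0.07. Spi1, which encodes PU.1, overlapped between groups, with 1387, 1497 and 1789 in combination libraries and 1178, 1515 and 1070 in ruxolitinib libraries. Its log2 fold change was 0.32 ± 0.10 (adjusted p = 0.0192), and the call was lost without combination replicate 3 (adjusted p = 0.0815), ruxolitinib replicate 1 (0.0769) or ruxolitinib replicate 3 (0.126). The mutated genes of the model did not pass: Cebpa was at -0.04 ± 0.09 (adjusted p = 0.738) and Csf3r at 0.06 ± 0.09 (adjusted p = 0.68), and both values may include reads from the retroviral copies.

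Growth genes fell almost as a whole list, by less than 2-fold each. Of 30 genes of MYC targets and ribosome biogenesis, all tested, 29 fell and none rose, with a median of -0.46 and a range of -0.80 to -0.27, and with any 1 library left out 29 fell as well. Srm, spermidine synthase, had 1574, 1642 and 1902 normalised read counts in combination libraries and 2822, 3231 and 2844 in ruxolitinib libraries (-0.80 ± 0.07, adjusted p = 3.36e-08). Odc1, the first enzyme of polyamine synthesis, had 594, 582 and 669 in combination libraries and 913, 907 and 930 in ruxolitinib libraries (-0.58 ± 0.06). Cad, which starts pyrimidine synthesis, had 2658, 2920 and 2969 in combination libraries and 3819, 4275 and 4192 in ruxolitinib libraries (-0.52 ± 0.06). The groups were separate in each of these genes. Gnl3, nucleostemin, fell by 0.54 ± 0.06 on the log2 scale and Dkc1, the pseudouridine synthase dyskerin, by 0.52 ± 0.05. Myc itself had 4170, 4265 and 4918 in combination libraries and 5493, 6302 and 5160 in ruxolitinib libraries, without overlap (-0.34 ± 0.07, adjusted p = 0.000755). Genes of the ribosome's own proteins mostly did not pass: 4 of 31 tested fell and none rose (median -0.13), where 15.6% of all tested genes fell. The count of falls in this list ran from 1 without combination replicate 2 or without ruxolitinib replicate 2 to 8 without combination replicate 3. Many of these genes have near-identical copies in the genome, so their values are uncertain.

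DNA replication genes fell by smaller steps. Of 30 tested 26 fell and none rose, with a median of -0.25. Mcm5, a subunit of the replicative helicase, had 3081, 3292 and 3515 normalised read counts in combination libraries and 4040, 4127 and 4167 in ruxolitinib libraries (-0.32 ± 0.06). Cdc6, which loads the helicase, had 650, 609 and 594 in combination libraries and 854, 784 and 762 in ruxolitinib libraries (-0.37 ± 0.07). Both genes were lower in every combination library. Orc1, of the origin recognition complex, fell by 0.46 ± 0.09 on the log2 scale, and Mcm10 by 0.32 ± 0.06. The number of falls was 16 without combination replicate 1, 17 without ruxolitinib replicate 1 and 15 with the variance taken from the 6 libraries alone. Genes of mitosis mostly did not pass, with 5 falls and 1 rise among 25 (median -0.05) and 2 to 5 falls with any 1 library left out. With the 6 libraries alone none of them passed. Over all tested genes 15.6% fell and 16% rose with the variance from all 12 libraries.

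**Figure D3:**
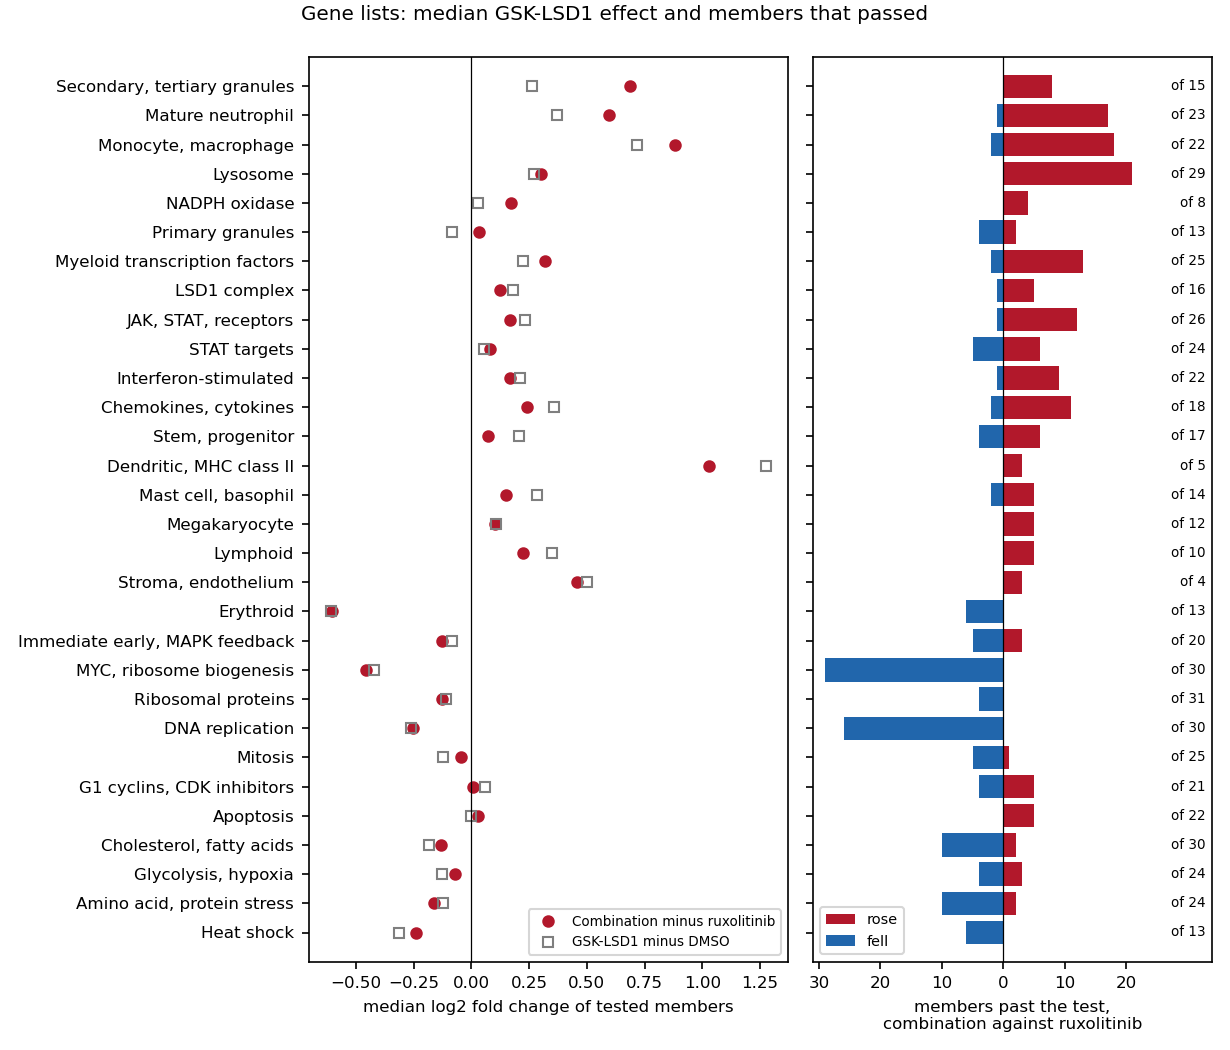
Left, median log2 fold change of the tested members of 30 gene lists, with filled circles for combination minus ruxolitinib and open squares for GSK-LSD1 minus DMSO. Right, number of members that rose (bars to the right) or fell (bars to the left) in the combination against ruxolitinib, with the number tested. Monocyte and macrophage genes (median 0.88, 18 of 22 higher) and MYC and ribosome biogenesis genes (median -0.46, 29 of 30 lower) stand at either end among the lists with at least 15 tested members.

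Ruxolitinib blocks the JAK pathway. Of 26 tested receptors, kinases and regulators 12 rose and 1 fell, with a median of 0.17. Il6st, the shared receptor chain gp130, had 1328, 1207 and 1017 normalised read counts in combination libraries and 522, 448 and 557 in ruxolitinib libraries (1.21 ± 0.09, adjusted p = 1.57e-09). Il6ra, the interleukin-6 receptor, had 213, 204 and 185 in combination libraries and 119, 104 and 87.0 in ruxolitinib libraries (0.96 ± 0.13). Both chains were higher in every combination library. Ptpn6, the phosphatase SHP-1 that dampens receptor signalling, rose by 0.59 ± 0.06 and Jak1 by 0.23 ± 0.06, while the kinase gene Tyk2 fell by 0.26 ± 0.06 on the log2 scale. Jak2 was at 0.16 ± 0.07 and did not pass (adjusted p = 0.108), though it did without combination replicate 3 (adjusted p = 0.0233) or without ruxolitinib replicate 3 (adjusted p = 0.00977). Among 24 STAT targets 6 rose and 5 fell (median 0.08), against 16% and 15.6% of all tested genes, so the list is not set apart by its counts. The repressor gene Bcl6 rose by 1.00 ± 0.15, Stat5b by 0.33 ± 0.05 and Stat3 by 0.24 ± 0.06. The cytokine gene Il10 fell by 1.29 ± 0.21 on the log2 scale, Pim3 by 0.42 ± 0.11, and the feedback inhibitor gene Socs2, with 4576, 4689 and 4323 in combination libraries and 5201, 5523 and 5046 in ruxolitinib libraries, by 0.21 ± 0.06.

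Progenitor genes went both ways. Of 17 tested 6 rose and 4 fell, and the list's median was 0.07, or -0.05 without ruxolitinib replicate 2. The shares over all tested genes were 16% and 15.6%. Cd34, the surface marker of progenitors and also of mast cells and endothelium, had 1396, 1344 and 1230 normalised read counts in combination libraries and 326, 312 and 299 in ruxolitinib libraries (2.08 ± 0.09, adjusted p = 1.18e-13). The groups were far apart. Sox4 rose by 0.77 ± 0.07. Mycn fell by 0.57 ± 0.07 and the growth factor gene Angpt1 by 0.74 ± 0.11 on the log2 scale.

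Markers of other cells that bone marrow could hold were counted as well, and their part in the results was not tested. Beside the counts here and in the next paragraph, 16% of all tested genes rose and 15.6% fell. The falls among mast cell and basophil genes were near that share. Of 14 tested mast cell and basophil genes 5 rose and 2 fell (median 0.15; 3 rose without combination replicate 1 or 2 or without ruxolitinib replicate 1), and the summed level of the list was 31400 to 34430 in combination libraries and 31090 to 34210 in ruxolitinib libraries. Within it Hdc, which makes histamine, had 1003, 965 and 1047 in combination libraries and 527, 534 and 658 in ruxolitinib libraries (0.82 ± 0.08). Fcer1a, a chain of the IgE receptor, had 3903, 4227 and 2760 in combination libraries and 5239, 4808 and 4819 in ruxolitinib libraries (-0.47 ± 0.11). The mast cell and basophil list thus had members changed in opposite directions at like sums. Among megakaryocyte genes 5 of 12 rose and none fell (median 0.10), led by Thbs1, thrombospondin 1, with 1895, 1610 and 1856 in combination libraries and 434, 411 and 426 in ruxolitinib libraries (2.07 ± 0.10). Itgb3, the integrin subunit of platelets, rose by 0.91 ± 0.07. The list summed to 10890 to 11390 in combination libraries and 8522 to 8914 in ruxolitinib libraries, with Gp6 at 0 in all.

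Erythroid genes were lower: 6 of 13 tested fell and none rose, with a median of -0.60. Klf1, the erythroid transcription factor, had 56.5, 52.3 and 89.5 normalised read counts in combination libraries and 105, 132 and 117 in ruxolitinib libraries (-0.86 ± 0.19). Combination replicate 3 was the highest of its group. Without ruxolitinib replicate 2 and combination replicate 3, 11 fell and the median was -1.01, without combination replicate 3 alone 10 fell, and without ruxolitinib replicate 3 there were 4 falls and 1 rise. The list summed to 4026 to 4749 in combination libraries and 4716 to 5845 in ruxolitinib libraries, and the globin genes Hba-a1, Hba-a2, Hbb-bs and Hbb-bt were at 0 in all 12. Of 10 tested lymphoid genes 5 rose and none fell (median 0.22), at sums of 51120 to 55260 in combination libraries and 43570 to 49700 in ruxolitinib libraries. Without combination replicate 1 or without ruxolitinib replicate 1, 3 rose. Most of the sum was Gzmb, granzyme B, with 44300, 39960 and 40020 in combination libraries and 33190, 35650 and 37560 in ruxolitinib libraries (0.22 ± 0.07, adjusted p = 0.0148). Its call was lost without combination replicate 1 (adjusted p = 0.0889), without ruxolitinib replicate 1 (0.0639) and under 3 other settings. Rag1, of the antigen receptor recombinase, had 307, 295 and 264 in combination libraries and 172, 157 and 214 in ruxolitinib libraries (0.68 ± 0.11), whereas Cd4, Ms4a1, Pax5, Zap70, Bcl11b and Dntt were at 0 in all 12 libraries. Among dendritic cell markers and genes of MHC class II, 5 were tested and 3 rose (median 1.03), at sums of 293 to 357 in combination libraries and 222 to 226 in ruxolitinib libraries, with H2-Aa at 0. Of 4 tested stromal and endothelial genes 3 rose (median 0.46; 2 without ruxolitinib replicate 2 and combination replicate 3), at sums of 4378 to 4427 in combination libraries and 3246 to 3689 in ruxolitinib libraries, with Dcn, Lum, Cxcl12, Cdh5, Kdr and Vcam1 at 0. Most of that sum was Pecam1, with log2 values of 11.89, 11.88 and 11.89 in combination libraries and 11.49, 11.71 and 11.58 in ruxolitinib libraries.

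The same drug step was also made without ruxolitinib, in libraries that enter the fold changes above in no way but share the estimate of variance, which asks how far the response depended on the JAK inhibitor. GSK-LSD1 against DMSO changed 3728 genes (32.5%), 1948 higher (17%) and 1780 lower (15.5%). Of the genes that rose with ruxolitinib present, 76.6% also rose without it, and 72.1% of the rises without it also rose with it. Of the falls with ruxolitinib present 69.4% also fell without it, and 69.9% of the falls without it also fell with it. No gene was called in opposite directions. Across the 11484 genes the fold changes had a Pearson's r of 0.852 and a Spearman's rho of 0.792, as a description over genes. Of the 364 genes that rose at least 2-fold with ruxolitinib 312 rose without it, and of the 26 that fell at least 2-fold 17 did. The 2649 genes called in both pairs had a median size of change of 0.40 with ruxolitinib and 0.39 without. Gfi1b (2.31 with ruxolitinib and 2.39 without), Csf1 (1.31 with and 1.32 without), Lgals3 (0.88 with and 0.88 without) and Odc1 (-0.58 with and -0.62 without) were examples with close values.

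The difference between the 2 drug steps was tested directly as an interaction, and 1 gene passed (0.00871%), Mmp8. It had 5016, 5192 and 6006 normalised read counts in GSK-LSD1 libraries and 2252, 2018 and 1953 in DMSO libraries, a log2 fold change of 1.38 ± 0.07. The step with ruxolitinib present was larger by 0.67 ± 0.10 on the log2 scale (adjusted p = 0.0236). The call was lost with several settings: the adjusted p was 0.216 with no filter on low values, 0.0557 after quantile normalisation and 0.454 without the variance trend. It was also lost without combination replicate 1 (0.115), ruxolitinib replicate 3 (0.126), GSK-LSD1 replicate 1 (0.115) or 2 (0.199), or DMSO replicate 1 (0.207) or 2 (0.0858). Without adjustment, 534 genes had a p under 0.05.

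Granule and neutrophil genes had larger steps with ruxolitinib in value, without passing one by one apart from Mmp8. All 15 tested secondary and tertiary granule genes had a positive difference between the steps, with a median of 0.46, and so did 19 of 23 mature neutrophil genes (median 0.23) and 17 of 22 monocyte and macrophage genes (median 0.11). Over all tested genes 48.4% were positive (median -0.01), and of 30 MYC and ribosome biogenesis genes 10 were (median -0.03). Members of a list share the same libraries and are not replicates. The lists were also chosen with earlier results of these data known, so these counts are a description and no test. Lyz2 had 602, 526 and 568 in GSK-LSD1 libraries and 542, 426 and 396 in DMSO libraries, which overlapped, and its difference between the steps was 0.76 (adjusted p = 0.0794). Hp differed by 0.71 (adjusted p = 0.394), Thbs1 by 0.68 (adjusted p = 0.207) and Cybb by 0.68 (adjusted p = 0.573). Cybb did not pass without ruxolitinib, at -0.17 (adjusted p = 0.294). In the other direction Cd86, a costimulatory protein of antigen-presenting cells, was at 1.03 with ruxolitinib and 1.67 without (difference -0.64, adjusted p = 1.00).

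**Figure D4:**
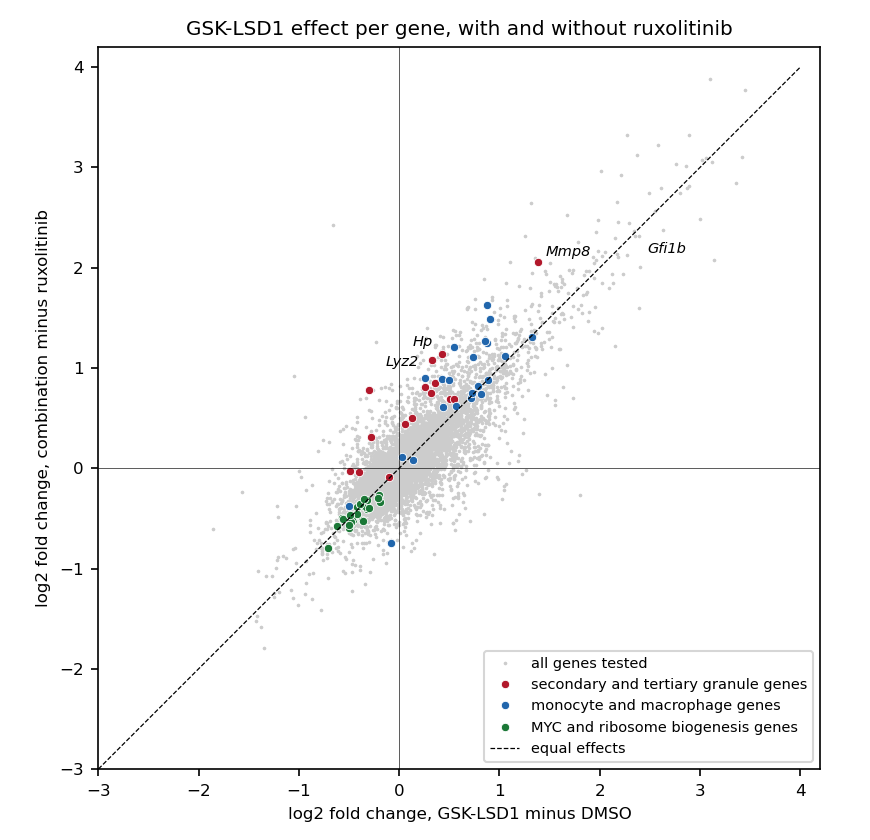
Log2 fold change of GSK-LSD1 minus DMSO (horizontal axis) against combination minus ruxolitinib (vertical axis) for each tested gene. Grey points are all 11484 genes, coloured points 3 gene lists, and the dashed line marks equal effects. The 15 secondary and tertiary granule genes lie above the line, Mmp8 at 1.38 and 2.05, and the MYC and ribosome biogenesis genes lie close to it below 0.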

How the data were processed

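RNA sequencing of total RNA gave 12 libraries, 3 per treatment, grouped by the treatment in the labels. The deposited table holds a signal per gene, made by the authors from read counts divided by a library factor, with 1e-05 added; the constant was taken off. Per the submitters' processing notes, the tools included STAR and DESeq2 and the build was GRCm38; versions, annotation, counting and strandedness are not given in the sources used here. Of 24411 genes 7367 were at 0 in all libraries; 27 date-like and 2 repeated symbols were tested but not named. All values lay within 0.01 of whole multiples of a library's step, but because of the constant no count test was run.

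Genes with a mean of at least 10 were fitted with limma 3.58.1 (R 4.3.3; log2 of value plus 1, variance trend, 4 group means, 8 residual degrees of freedom), which was tested on simulated data. P-values were adjusted by Benjamini-Hochberg, with a threshold of 0.05. Members and lists (30 lists) were chosen with earlier results of these data known. Named genes were the 10 largest rises and falls (higher group averaging 100 or more, libraries not overlapping, no predicted symbol), the 5 members of each list with the smallest p with any member opposite to the median, genes of prior interest and genes past the interaction test. Grwd1, Nop2, Atp5g1, Il20ra, genes at 0 and genes named under single alternatives fall outside that rule, and some genes it chose are not reported here. Positions are GENCODE vM21 and promoters RefSeq, matched by symbol. The 25 alternatives changed pseudocount, filter, scaling, variance model, weights, replicate block, GC correction or left out libraries.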

Additional observations from a re-analysis of the deposited data

Results flagged for a closer look

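Mmp8 is listed because its response to GSK-LSD1 differed between cells with and without ruxolitinib in the test of the interaction itself. It had 8499, 7585 and 7974 normalised read counts in combination libraries against 2040, 1991 and 1764 in ruxolitinib libraries, and 5016, 5192 and 6006 in GSK-LSD1 libraries against 2252, 2018 and 1953 in DMSO libraries. The difference between the steps was 0.67 ± 0.10 on the log2 scale (SE; limma, adjusted p = 0.0236), and every combination library lay above every GSK-LSD1 library. Groups of 3 libraries are too small to single out a library as an outlier. The settings that end the call are given in the results and, for the replicate block, with the other processing alternatives.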

How the results depend on the processing

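Of 183 genes chosen by the naming rule 155 kept their side of the threshold under all 25 alternatives, and of the 173 past the test 147 kept it, with none reversed. Most of these genes were picked for a large change or a small p in this comparison, so their stability is partly built in. Of all 3625 genes called, 2560 were also called with only the libraries of the comparison and 2741 without combination replicate 1. Of 750 values of list medians under the alternatives 724 moved by less than the spread between replicates, 26 moved by more and none reversed beyond that spread. The count of higher genes ran from 1513 to 1893 and that of lower genes from 1359 to 1940 with a library left out (total 2872 to 3833), against 1832 and 1793. With only the libraries of the comparison 1439 rose and 1128 fell. That fit has fewer degrees of freedom, and its replicates were mostly further apart. Between replicates, chi-square per degree of freedom of the read multiples was 1.66 to 7.13 in the combination and 2.88 to 6.26 with ruxolitinib. It was 1.48 to 2.64 with GSK-LSD1 and 1.74 to 1.87 with DMSO. The variance from all 12 libraries may thus be too small for this comparison. What lowered the counts was not tested. GSK-LSD1 against DMSO gave 2736 to 4209 genes with a library left out. The interaction gave 0 genes with no filter, after quantile normalisation, without the variance trend and with the replicate block, 5 with sample weights, 4 with the GC correction, 5 with the replicate block and GC correction together, and 3 without ruxolitinib replicate 2 and combination replicate 3 together; with a library left out it gave 0 to 2. Lyz2 and Hp passed in each of the settings with 3 or more; the cause was not tested. Libraries were not paired by replicate number in the main fit. Same-numbered combination and ruxolitinib libraries had correlated deviations of 0.15, -0.125 and -0.115, and not every library correlated best with its own number. The highest value, 0.276, joined combination replicate 3 and ruxolitinib replicate 2. The other groups were not checked, and whether a number stands for a shared culture or batch is not known. With the replicate block 1739 genes rose and 1640 fell, and the adjusted p of the Mmp8 interaction was 0.0783. Precision rests on 3 libraries per group, and calls on low values such as Cx3cr1 and Rps7 were lost under some alternatives.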

Other observations

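Of 22 tested apoptosis genes 5 rose and none fell (median 0.03), where 16% of all tested genes rose and 15.6% fell, and the other 17 did not pass. Bcl2l11, which encodes the BH3 protein BIM, had 368, 343 and 378 normalised read counts in combination libraries and 221, 206 and 201 in ruxolitinib libraries (0.79 ± 0.09, adjusted p = 4.29e-07). Bmf, another BH3 protein gene, had 622, 643 and 529 in combination libraries and 355, 352 and 388 in ruxolitinib libraries (0.71 ± 0.08). Both were higher in every combination library, and Casp9 rose by 0.29 ± 0.07 and Birc3 by 0.34 ± 0.09. Of 21 tested genes of G1 cyclins and their inhibitors 5 rose and 4 fell (median 0.01). Cdkn1b, the inhibitor p27, had 688, 678 and 642 in combination libraries and 473, 460 and 441 in ruxolitinib libraries (0.55 ± 0.07), and Ccne1, cyclin E1, fell by 0.31 ± 0.06 on the log2 scale.

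Among chemokines, cytokines and their receptors 11 of 18 tested genes rose and 2 fell (median 0.24). Il10ra, the interleukin-10 receptor, had 116, 146 and 126 normalised read counts in combination libraries and 23.9, 22.6 and 30.6 in ruxolitinib libraries (2.29 ± 0.19), while its ligand gene Il10 fell. Cxcr2, the neutrophil chemokine receptor, rose by 1.29 ± 0.17 and Cxcr4, which retains cells in bone marrow, by 0.63 ± 0.07. Of 22 interferon-stimulated genes 9 rose and 1 fell (median 0.17; 5 and none without combination replicate 1), with Gbp2 at 0.94 ± 0.15 and Irf7 at 0.92 ± 0.21. Of 20 immediate early and MAPK feedback genes 3 rose and 5 fell (median -0.13; 3 falls without combination replicate 1), with Dusp5 at 0.95 ± 0.12 and Egr1 at -0.99 ± 0.10. In metabolism, 10 of 30 cholesterol and fatty acid genes fell and 2 rose (median -0.13), 10 of 24 amino acid and protein stress genes fell and 2 rose (median -0.16; 14 falls at most and 8 at least with a library left out), 6 of 13 heat shock genes fell and none rose (median -0.24), and 4 of 24 glycolysis and hypoxia genes fell and 3 rose (median -0.07; 7 rises without ruxolitinib replicate 3). Over all tested genes 16% rose and 15.6% fell, and the glycolysis and hypoxia counts and the immediate early rises were near those shares. Lss, which forms the sterol ring, fell by 0.51 ± 0.07, Asns, asparagine synthetase, by 0.41 ± 0.06 and Hspd1, the mitochondrial chaperonin, by 0.51 ± 0.07 on the log2 scale, while Hif1a, the hypoxia factor, rose by 0.50 ± 0.07.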
